A study of Gallus gallus with 32 samples.

Results

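The fat and the lean chicken line were compared at 3 weeks of age, across all genes of the anterior pituitary gland. The members are the 8 arrays that the labels give to week 3, 4 of fat birds and 4 of lean birds, out of 32 arrays in the series. Both lines come from 7 generations of selection on abdominal fat weight, for more fat in one and for less in the other, and both were raised as broilers. The labels give no sex and do not say how many birds made up a sample. The replicates are labelled as biological. The other 24 arrays hold the same lines at 1, 5 and 7 weeks, of which 22 were used here.

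The anterior pituitary releases growth hormone, prolactin, thyrotropin, corticotropin and the gonadotropins. Each comes from a cell type of its own, under hormones that reach the gland from the hypothalamus. Transcription factors such as POU1F1 set the growth hormone, prolactin and thyrotropin lineages. In birds abdominal fat is filled mostly with lipid made in the liver, and pituitary hormones act on liver, fat and muscle.

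The arrays were spotted with cDNA clones. RNA was amplified, labelled with Cy3 and hybridised together with a Cy5-labelled reference, mixed from the RNA of all 32 samples. A value is thus the log2 ratio of a sample over the pool, and a difference is the fat mean minus the lean mean. It compares levels of 1 probe between lines and says nothing of levels between genes. At week 3, 14008 to 15897 of 19200 spots per array were usable, and the median spot was 5.34 to 8.05 times as bright as its surroundings in Cy3. The test covered 14600 probes, of which 8785 name 1 gene each, for 5709 genes, each represented by its brightest probe. Among arrays, fat replicates 1 and 2 stood apart: their median correlations with the other 7 week 3 arrays over probes were 0.38 and 0.27, against 0.54 to 0.63 for the other 6. Key values are therefore also given without both.

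No probe passed limma's moderated test at a Benjamini-Hochberg adjusted p of 0.05 (0% of 14600). Before adjustment 465 probes had a p under 0.05, or 3.18%, with 216 higher in fat birds (1.48%) and 249 lower (1.71%). Chance alone would give 730. Whether the count fell below that number depended on the setting. It was 836 (5.73%) with only the 8 week 3 arrays, 763 (5.23%) with scaling between arrays and 1014 (6.95%) with array weights. The median size of the difference over probes was 0.0887, and the 5th and 95th percentiles were -0.26 and 0.24, with a median standard error of 0.15. Differences past 0.5 in size were found for 228 probes and past 1 for 34. Without fat replicates 1 and 2, again none passed and 382 had an unadjusted p under 0.05, of which 249 were higher in fat birds and 133 lower. The share of higher probes thus went from 46.5% to 65.2% when these arrays were left out.

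The 5 smallest p values all belonged to probes that were lower in fat birds, with adjusted p from 0.0541 to 0.0543. SUFU, a repressor of Hedgehog signalling, and CD69L, named for its likeness to a lectin receptor of activated lymphocytes, were among them. The other 3 carry no gene symbol and were lower by -0.62, -0.79 and -0.73.

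SUFU had log2 ratios of 0.38, 0.19, 0.55 and 0.83 in lean replicates 1 to 4 and of -0.80, -1.03, -0.51 and -0.15 in fat replicates 1 to 4. All lean arrays lay above all fat arrays, and fat replicate 4 came nearest to the lean values. The difference was -1.11 (SE 0.21, 95% interval -1.54 to -0.68, 4 arrays per line), a level 2.16-fold lower in fat birds (limma, adjusted p = 0.0541). CD69L had ratios of 0.57, 0.47, 0.38 and 0.43 in lean birds and of -0.83, -0.83, -0.51 and -0.19 in fat birds. Its lean arrays were close together, and among the fat arrays replicate 4 was again nearest to them. The difference was -1.05 (SE 0.20, 2.08-fold, limma, adjusted p = 0.0541).

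Both genes stood just outside the threshold. SUFU passed in 6 of 28 alternative settings and CD69L in 6 of 27. With array weights the limma adjusted p was 0.00402 for SUFU and 0.00396 for CD69L. With loess per grid block it was 0.105 for both, and with the day in the file headers as a block 0.196 for both. SUFU did not pass in the authors' deposited table either. Without fat replicates 1 and 2 the differences were -0.82 and -0.81, with an adjusted p of 0.859 for SUFU and no call for CD69L. Between arrays of replicates 2, 3 and 4, whose file headers carry the same day in both lines, SUFU differed by -1.23, -1.06 and -0.98 and CD69L by -1.30, -0.90 and -0.62. SUFU was also lower in fat birds at week 1 by -0.87, at week 5 by -1.04 and at week 7 by -0.94. CD69L was lower at those ages by -1.06, -0.96 and -0.84. Neither differed between week 3 and the mean of the other ages by more than its error, with an interaction of -0.16 (limma, unadjusted p = 0.519) for SUFU and -0.10 (limma, unadjusted p = 0.667) for CD69L.

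**Figure D1:**
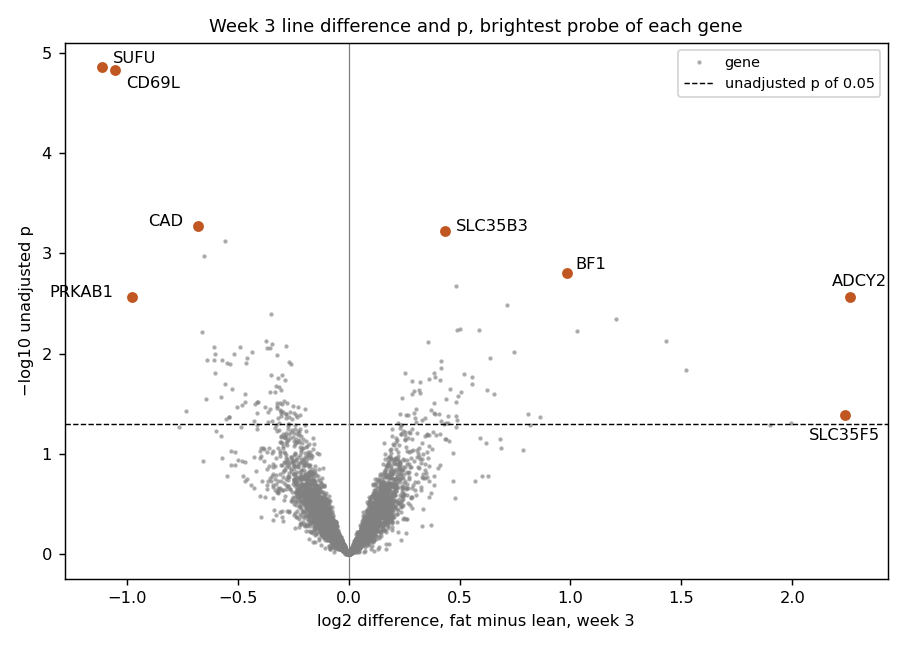
The log2 difference between lines at week 3 (x axis, fat minus lean) is plotted against −log10 of the unadjusted p (y axis) for the brightest probe of each of 5709 genes. SUFU and CD69L lie highest, at -1.11 and -1.05, and none of the genes passed at an adjusted p of 0.05.

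The Hedgehog list was chosen with an earlier call of SUFU in these data known, so its count is not independent. Of 5 measured genes of Hedgehog signalling SUFU was the 1 with an unadjusted p under 0.05, against 2.68% of all genes. The other 4 were higher in fat birds by at most 0.28, the value of SMO, the membrane protein that starts the signal inside the cell. The co-receptors BOC and CDON were at 0.09 and 0.03, and DISP1, which releases the ligand, at 0.09.

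Genes were next ranked among those whose 4 fat and 4 lean values do not overlap. This held for 143 of the 5069 genes measured on all 8 arrays (2.82%), with 66 higher in fat birds (1.3%) and 77 lower (1.52%). An exact permutation test of 4 against 4 arrays cannot give a two-sided p below 0.0286. That is also the share that chance alone would leave without overlap. With each gene taken by its brightest probe, the 12 largest differences per direction are named. Ranked and tested on the same difference, 21 of these 24 had an unadjusted p under 0.05, against 2.68% of all genes. That count follows largely from the choice, and none of the 24 passed after adjustment.

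On the lower side, after SUFU and CD69L, came PRKAB1 and CAD among others. PRKAB1, a regulatory subunit of the energy sensor AMP kinase, had ratios of 1.74, 0.20, 0.18 and 0.43 in lean and of -0.43, -0.37, -0.28 and -0.27 in fat birds. The fat arrays were close together, lean replicate 1 was far above the others, without it the difference was -0.61 in place of -0.98, and a second PRKAB1 probe differed by 0.09. CAD, the enzyme that starts pyrimidine synthesis, had ratios of 0.19, 0.05, 0.16 and 0.29 in lean and of -0.54, -0.73, -0.70 and -0.06 in fat birds. Its difference was -0.68 (SE 0.17, limma, adjusted p = 0.528), with fat replicate 4 close to the lean arrays. Other CAD probes differed by -0.31, 0.04 and 0.11, so the gene's probes disagree.

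PYCRL, an enzyme of proline synthesis, was lower by -0.56 (SE 0.15) and IDO2, a tryptophan-degrading enzyme, by -0.76 (SE 0.38), with a second IDO2 probe at 0.21. Single arrays carried part of both, since PYCRL was at -0.34 without fat replicate 3 and IDO2 at -0.51 without fat replicate 4. TSPAN7, a membrane tetraspanin, differed by -0.65 (SE 0.18), and its second probe by -0.50. UVRAG, which takes part in autophagy, differed by -0.66 (SE 0.22), and its other probes by -0.47 and 0.18. ADAMTS13, the protease that trims von Willebrand factor, was lower by -0.56, APTX, a DNA repair enzyme, by -0.50, LOC418170 by -0.60 and NHLRC3 by -0.52. In NHLRC3 lean replicate 2 was at 1.79 and the other lean arrays between 0.45 and 0.52, and without that array the difference was -0.19.

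On the higher side, GUCY1A3, the alpha subunit of the nitric oxide receptor guanylyl cyclase, had ratios of -0.43, -0.40, -0.71 and -0.56 in lean and of -0.10, 0.33, 0.27 and 0.26 in fat birds. Its difference of 0.72 (SE 0.22, 1.64-fold, limma, adjusted p = 0.945) was the largest in this direction among genes without overlap, each taken by its brightest probe. A probe of CENPQ that was not the brightest of its gene differed by 0.74 without overlap (limma, unadjusted p = 0.000132, adjusted p = 0.241). SLC35B3, a sulphate-donor transporter of the Golgi, had the smallest p among the 12 named on this side. It had ratios of 0.08, 0.05, 0.13 and 0.27 in lean and of 0.67, 0.49, 0.61 and 0.51 in fat birds, a difference of 0.44 (SE 0.11, 1.35-fold, limma, adjusted p = 0.528). Both lines were tight in this gene, with an SD of 0.0939 in lean and 0.0856 in fat birds.

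Among the others, JCHAIN, the joining chain of antibodies, was higher by 0.65 (SE 0.28), CD74, the invariant chain of MHC class II, by 0.49 (SE 0.21), and DMA, an MHC class II peptide-loading chain, by 0.49 (SE 0.16). RNF126, a ubiquitin ligase, was at 0.49 (SE 0.14), POSTN, the matrix protein periostin, at 0.48 (SE 0.21), and PSME3, an activator of the proteasome, at 0.47 (SE 0.34). RHBDF1, an inactive rhomboid protein, was at 0.45, the chromatin protein PHF20L1 at 0.50, the leucine-rich repeat protein LINGO3 at 0.50 and PPP1RL at 0.68, of which fat replicate 3 alone, at 0.91, lay far above the other fat arrays at 0.03 to 0.11.

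**Figure D2:**
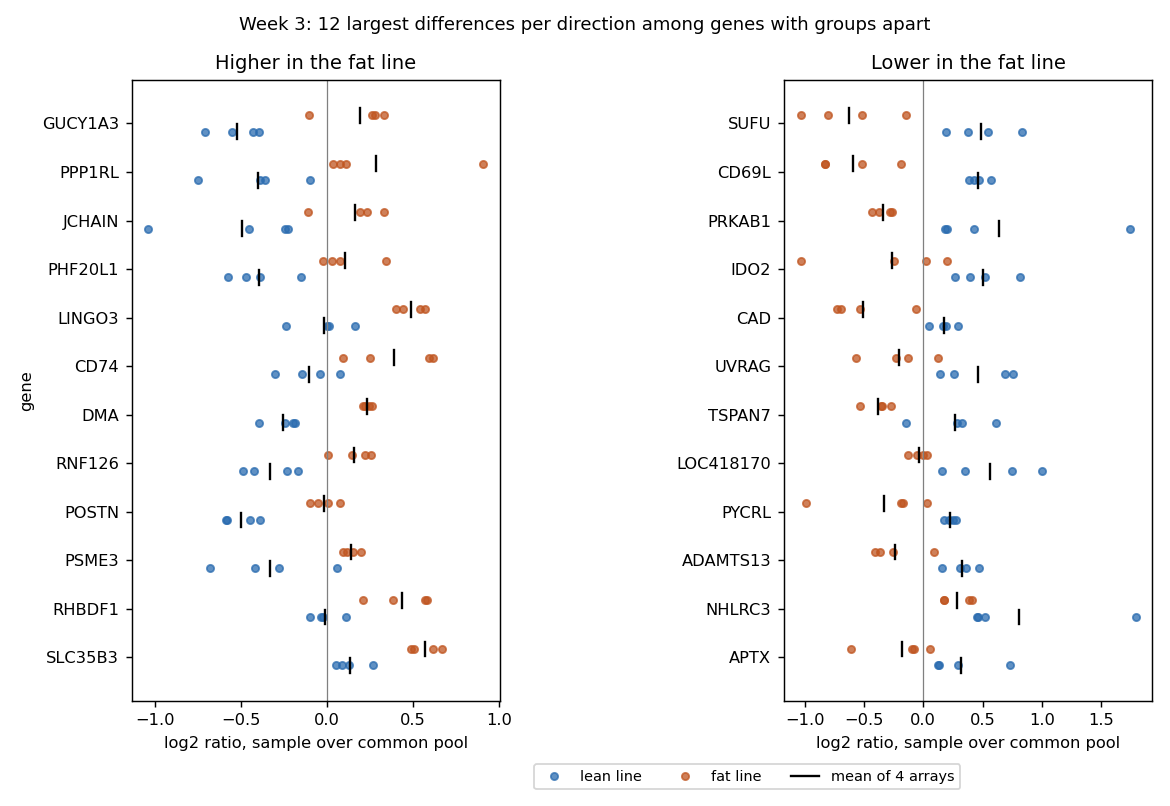
Each row is a gene and each point an array, placed by its log2 ratio of sample over pool (x axis), with lean arrays in blue, fat arrays in orange and a black line at each mean of 4 arrays. In every row the lines do not overlap, as the choice of genes requires, and the spread differs between genes, with single far points such as lean replicate 1 of PRKAB1 at 1.74.

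The same 24 genes were then read at the other ages, whose log2 ratios were not used to rank them. Those arrays did enter the choice of the brightest probe and the filter for usable probes. Their difference had the same sign at week 1 in 17, at week 5 in 23 and at week 7 in 18, and 13 had 1 sign at all ages. Over all 14600 probes the share with the same sign as at week 3 was 56.4% at week 1, 66.3% at week 5 and 63.5% at week 7, so more than an even share agreed over all probes as well. Among the 398 probes without overlap at week 3, the rule that the 24 genes had to meet, it was 73.6%, 83.2% and 69.6%. The 13 were PPP1RL, RNF126, POSTN and SLC35B3 on the higher side and SUFU, CD69L, PRKAB1, CAD, UVRAG, TSPAN7, LOC418170, PYCRL and APTX on the lower. LINGO3, in contrast, was at 0.50 at week 3 and at -0.06, 0.07 and 0.03 at the other ages. The test of week 3 against the mean of the other ages holds the difference that ranked these 24. Its count is thus not independent of the choice. For 3 of the 24 genes, LINGO3, DMA and NHLRC3, the difference at week 3 departed from the mean of the other ages at an unadjusted p under 0.05. The lowest of them was 0.0199, for LINGO3 (limma, adjusted p = 1.0), and 1.23% of all probes had such a p.

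Across all probes no difference between week 3 and the mean of the other ages passed (0% of 14600), and 180 probes had an unadjusted p under 0.05 in limma. By sign, 2910 of the 5709 genes (51%) were higher in fat birds at week 3. The week 3 differences correlated over the 14600 probes with those at week 1 at 0.23, at week 5 at 0.37 and at week 7 at 0.27. All ages share the platform, the pool and 1 model of the spread, and probes are not independent.

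A further reading took the probes called on the line difference at the other ages. On the mean of weeks 1, 5 and 7, with 22 arrays, 23 probes passed at an adjusted p of 0.05 (0.158% of 14600), 10 higher and 13 lower in fat birds. At week 3, 21 of the 23 had the same sign and 17 had an unadjusted p under 0.05, all 17 in the same direction, against 3.18% of all probes. In 12 of the 23 the fat and lean arrays of week 3 did not overlap, against 3.14% of the 12679 probes measured on all 8 (1.59% higher and 1.55% lower). The median size was 0.603 at the other ages and 0.606 at week 3, taken in the direction of the other ages. The mean difference at the other ages uses no week 3 array. The choice is still not free of those arrays, since they enter the residual spread shared by all these tests and each probe needed at least 3 usable arrays in both week 3 groups.

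Of these 23 probes 10 name a gene. SUFU, CD69L and CAD are described above. CPQ, a secreted carboxypeptidase, is named by a pair of them, which differed at week 3 by 0.64 and 0.57. Its brighter probe had ratios of -0.06, 0.41, -0.53 and -0.31 in lean and of 0.49, 0.40, 0.63 and 0.54 in fat birds, so that lean replicate 2 reached into the fat range. EXOG, a mitochondrial nuclease, was lower by -0.35 at week 3 and by -0.41 at the other ages, without overlap at week 3. STAU2, an RNA-binding protein of transport granules, was lower by -0.61 and -0.66. CLEC3B, the plasminogen-binding protein tetranectin, was higher by 0.54 and 0.49, again without overlap. LAMTOR5, a subunit of the lysosomal Ragulator complex, was at 0.04 at week 3 and at -0.40 at the other ages, and DSCR3, a protein of endosomal sorting, at 0.07 and 0.39. For LAMTOR5 the gap between week 3 and the other ages was 0.44 (limma, unadjusted p = 0.0126, adjusted p = 1.0). That gap holds the difference at the other ages on which the probe was chosen.

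**Figure D3:**
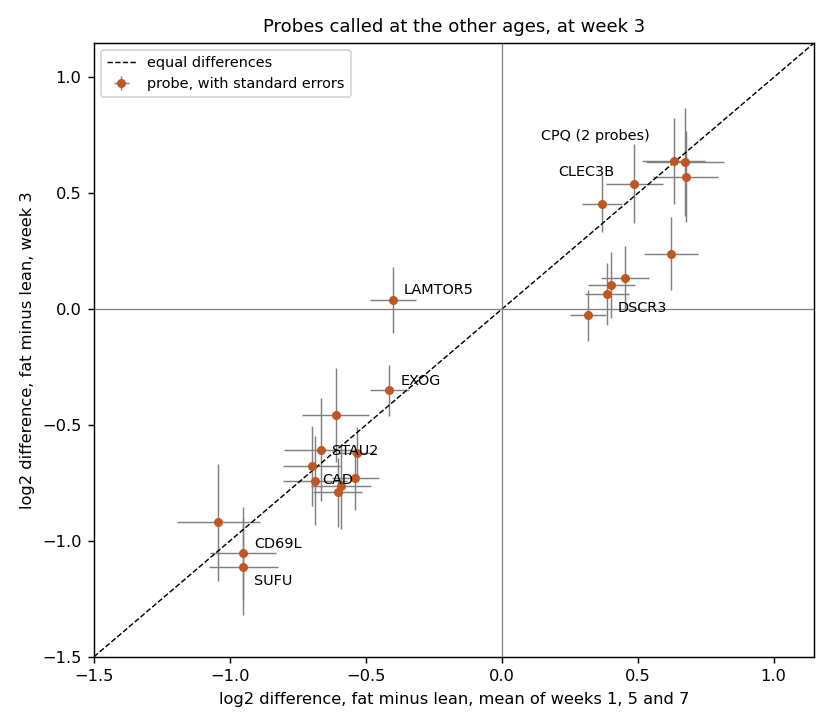
Each point is 1 of 23 probes that passed on the mean of weeks 1, 5 and 7, with that difference on the x axis and the week 3 difference on the y axis (log2, fat minus lean), bars of 1 standard error each way and a dashed line where both are equal. In all, 21 of the 23 keep their sign at week 3, and LAMTOR5 is among the others.

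None of the 6 measured hormone transcripts passed between lines at week 3, and none had an unadjusted p under 0.05. All 6 were usable on all 8 arrays and were well above background. POMC stood least above it, with a Cy3 signal of 8.30 to 12.7 times background, and GH had 44.9 to 92.8 times.

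GH, growth hormone, had ratios of -0.02, 0.19, -0.34 and -0.02 in lean birds and of -0.01, 0.15, -1.03 and -0.65 in fat birds. Fat replicates 1 and 2 lay among the lean arrays, and fat replicates 3 and 4 lay below all of them. The difference was -0.34 (SE 0.30, 95% interval -0.96 to 0.28), and a second and dimmer GH probe was at -0.04. Without fat replicates 1 and 2 the difference was -0.79 (limma, unadjusted p = 0.0317, adjusted p = 0.9999). Those are the arrays that stood apart from the rest, and the part of what sets them apart was not tested.

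PRL, prolactin, differed by -0.13 (95% interval -0.62 to 0.37) and CGA, the alpha chain shared by thyrotropin and the gonadotropins, by -0.20 (-0.81 to 0.41). TSHB, the beta chain of thyrotropin, was between -0.56 and -0.07 in lean birds and at 0.49, -0.42, 0.34 and -0.96 in fat birds, with a difference of 0.11 (SE 0.34). The fat arrays thus reached both above and below the lean ones, with an SD of 0.68 against 0.22. FSHB, which gives follitropin its beta chain, differed by -0.40 (SE 0.48, and -0.63 to -0.12 with 1 array left out) and POMC, the precursor of corticotropin, by 0.17 (SE 0.13). The intervals of all 6 include 0 and leave room for differences of 0.43 (POMC) to 1.39 (FSHB) in size.

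Of 13 measured lineage factors, 8 were higher and 5 lower in fat birds, with a median of 0.07 against 0.00314 for all genes. At an unadjusted p under 0.05, 1.12% of all genes were higher and 1.56% lower. POU1F1, the factor of the growth hormone, prolactin and thyrotropin lineages, was the single lineage factor under that p. It had ratios of -0.12, 0.09, 0.09 and 0.01 in lean birds and of -0.41, -0.39, -0.14 and -0.11 in fat birds. The lines overlapped at 1 point, where lean replicate 1 met fat replicate 4, and the difference was -0.28 (SE 0.13, 1.22-fold, limma, unadjusted p = 0.0399, adjusted p = 0.999). Without fat replicates 1 and 2 it was -0.15. With GH, PRL and GHRHR, 4 of 4 markers of somatotropes and lactotropes were lower, by -0.34 to -0.13, as were 2799 of all 5709 genes. Only POU1F1 among them had an unadjusted p under 0.05. Their mean per array was -0.06 to 0.12 in lean and -0.32 to -0.01 in fat birds, so the lines overlapped. Gonadotrope markers were lower in 2 of 2, and thyrotrope markers, which include POU1F1, in 1 of 2. In such bulk samples fewer cells of a type and less RNA per cell cannot be told apart.

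HES4, a target of Notch signalling, was at 0.24 (SE 0.12) on 7 of the 8 arrays. TBX19, the factor of POMC cells, was at 0.09, NR5A1, that of gonadotropes, at -0.15, and GATA2, shared by gonadotropes and thyrotropes, at 0.07. NEUROD1 was at -0.13, ISL1 at 0.04, PITX3 at 0.11, the early response factor EGR1 at -0.12, ETS1 at 0.17, RB1 at -0.07, TCF7L2 at 0.11 and CTNNB1 at 0.09. None of these 12 had an unadjusted p under 0.05.

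Of 7 measured receptors for hypothalamic hormones, 4 were higher and 3 lower, and none had an unadjusted p under 0.05. GHRHR, the receptor for the releasing hormone of growth hormone, was at -0.13 (SE 0.17), SSTR2, a receptor for somatostatin, at 0.07 and DRD5, a dopamine receptor, at 0.25 (SE 0.15). VIPR1, a receptor for the prolactin-releasing peptide VIP in birds, was at 0.09, AVPR1B, a vasotocin receptor of corticotropes, at -0.31 (SE 0.34) and SCTR, the secretin receptor, at 0.05. CRHR2, a receptor for corticotropin-releasing hormone, was at -0.65 (SE 0.40), and lean replicate 2, at 1.74, stood far above the other lean arrays at -0.40 to -0.11. Without that array the difference was -0.15.

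**Figure D4:**
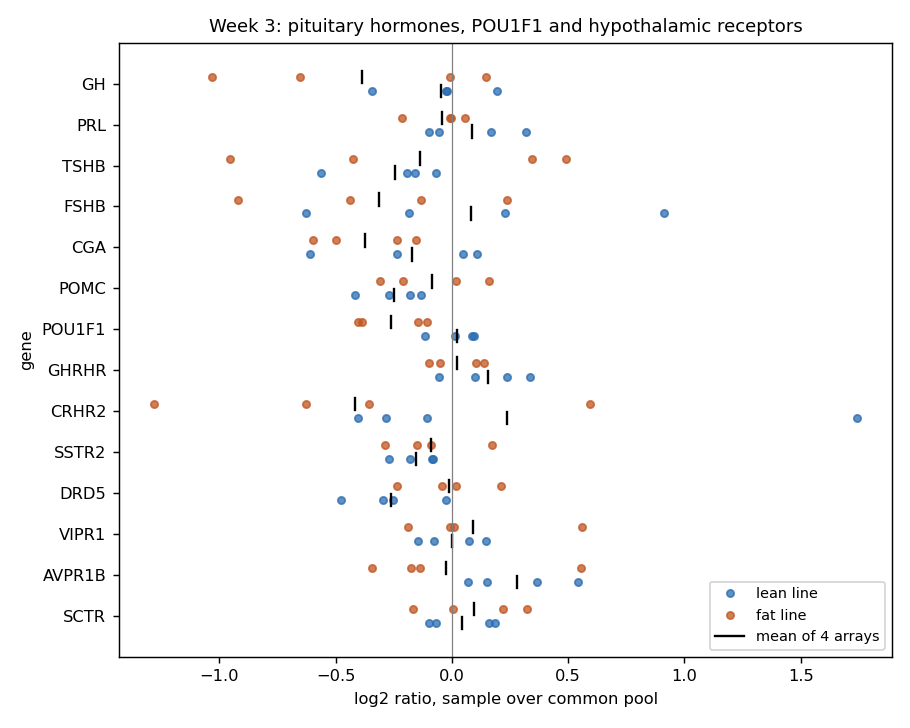
Rows show the 6 hormone transcripts, POU1F1 and 7 hypothalamic receptors, with 1 point per array placed by its log2 ratio of sample over pool (x axis), lean in blue and fat in orange, and a black line at each mean of 4 arrays. The lines overlap in every row, and POU1F1 is the row with the least overlap, from -0.12 to 0.09 in lean and from -0.41 to -0.11 in fat birds.

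Genes that answer to hormones from the body showed no common direction. Of 23 measured peripheral receptors and feedback genes 9 were higher and 14 lower. ADIPOR1, an adiponectin receptor, was at -0.54 (SE 0.25, limma, unadjusted p = 0.0422) on 7 arrays. LEPR, the leptin receptor, was at 0.33 (SE 0.26) and GHR, the growth hormone receptor, at 0.24 (SE 0.12). Genes that cut prohormones or travel in secretory granules lay within -0.17 to 0.22, with 9 of 19 higher and 10 lower. SYT4, a synaptotagmin of secretory granules, was the member whose lines did not overlap, with ratios of 0.17 to 0.22 in lean and of -0.07 to 0.09 in fat birds, a difference of -0.17 (SE 0.12). Over all genes measured on all 8 arrays, 2.82% did not overlap.

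Genes of lipid and cholesterol metabolism likewise split, with 31 of 53 higher and 22 lower and a median of 0.02. One in each direction had an unadjusted p under 0.05, where 1.12% of all genes were higher and 1.56% lower. SREBF1, a factor that drives fatty acid synthesis, was at 0.45 (SE 0.19, limma, unadjusted p = 0.0227) and DHCR7, an enzyme of the last steps of cholesterol synthesis, at -0.30 (SE 0.13, limma, unadjusted p = 0.0316). FASN, the fatty acid synthase, was at 0.07 (SE 0.15). The cholesterol enzymes LSS and SQLE were lower without overlap, by -0.18 (SE 0.10) and -0.12 (SE 0.13), with a second LSS probe at -0.07. CEBPB, a factor of fat cell differentiation, was higher without overlap by 0.33 (SE 0.23), with a second probe at 0.01. Of the list's 48 genes on all 8 arrays, 1 was higher and 2 lower without overlap, against 1.3% and 1.52% of all genes. LSS, SQLE and CEBPB were picked for that, and none had an unadjusted p under 0.05.

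Lists of the cell's basic machinery had small medians. Oxidative phosphorylation had 28 of 43 genes lower and a median of -0.05, cytosolic ribosomal proteins 29 of 44 lower and -0.03, glycolysis and the citrate cycle 24 of 40 lower and -0.04, and the cell cycle 18 of 31 lower and -0.06. TPI1, a glycolytic enzyme, was lower by -0.20 (SE 0.09) and GINS2, a replication factor, by -0.29 (SE 0.15), both without overlap. NDUFB9, a complex I subunit, was lower without overlap by -0.09 (SE 0.15). Among members measured on all 8 arrays, 1 of 35, 0 of 41, 1 of 39 and 1 of 30 did not overlap, in the order of the lists above. Over all genes on all 8 arrays 2.82% did not. In these 4 lists 1 gene of the first and 1 of the third were higher at an unadjusted p under 0.05, and 2 of the first, 2 of the third and 2 of the fourth were lower. Over all genes 1.12% were higher and 1.56% lower at that p.

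Of 11 groups of cell type markers, those of leukocytes were the 1 group whose array means did not overlap between lines, although no marker passed. Chance alone would leave any 1 group without overlap at a share of 0.0286, and 11 groups were read. Of 8 measured leukocyte markers 7 were higher in fat birds, where 51% of all genes were higher. The mean of the 8 per array was -0.26 to -0.13 in lean birds and 0.08 to 0.12 in fat birds, with no overlap. PTPRC and C1QA were not measured here, and the markers were picked with results of these data known. C1QC was not usable on every array, so the array means do not all cover the same markers. Without CD74 and JCHAIN, both among the largest differences, the means of the other 6 were -0.19 to -0.08 in lean and -0.03 to 0.13 in fat birds.

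CD74 had ratios of 0.07, -0.04, -0.31 and -0.15 in lean and of 0.09, 0.25, 0.59 and 0.61 in fat birds. Its 4 probes were all higher in fat birds, by 0.19 to 0.68. DMA was at -0.20, -0.25, -0.39 and -0.19 in lean and at 0.22, 0.26, 0.24 and 0.21 in fat birds, the tightest fat group of the 24 genes above, with an SD of 0.0239. JCHAIN was between -1.04 and -0.23 in lean and between -0.11 and 0.33 in fat birds. C1QC, a chain of the complement factor made by macrophages, was higher by 0.59 (SE 0.20) on 7 arrays, TLR2A, a receptor for bacterial lipopeptides, by 0.38 (SE 0.18), BTK, a kinase of B cells, by 0.26 (SE 0.15) and CTSS, a lysosomal protease of antigen-presenting cells, by 0.19 (SE 0.13).

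In the wider list of lymphocyte and macrophage genes 16 of 25 were higher and 9 lower, with a median of 0.10 against 0.00314 for all genes. CD69L, lower by -1.05, is a member of that list and among its 9 lower genes. The immune genes given values just above were all on the higher side. CD69L and JCHAIN, which differed in opposite directions, were then left out for the size of their differences. The array means of the other 23 were -0.11 to -0.05 in lean and -0.03 to 0.06 in fat birds. Array means of all 25 were not taken, so whether the lines overlap in the full list was not tested. At an unadjusted p under 0.05, 3 of the 25 were higher (1.12% of all genes were) and 1 was lower (1.56%).

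MHC class I probes gave some of the largest differences, but they were chosen after their values were seen and rest in part on 1 array. The 3 probes of BF1, a class I heavy chain, differed by 0.98 to 1.25, and 4 of 11 probes of the near-identical BF2 differed by 0.76 to 1.27. These 7 probes were at -2.06 to -1.24 in lean replicate 3, and without that array their differences were 0.52 to 0.89. The remaining 7 BF2 probes differed by -0.11 to 0.10 and were at -0.31 to 0.45 in lean replicate 3. None of the 14 passed at an adjusted p of 0.05. In 3 of the 7 the lines did not overlap, against 3.14% of the 12679 probes measured on all 8 arrays. The 7 were set apart by a week 3 difference above 0.5, so that count is not independent of the choice.

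At week 7 the same 7 probes were lower in fat birds, by -1.31 to -0.57, and at week 1 higher by 0.15 to 0.79. One MHCY4 probe, of the second avian MHC region, differed by 1.52 and another by -0.36. BLB1, a class II beta chain, had probes from -0.16 to 0.38. B2M, the light chain of class I, had probes from -0.12 to 0.28 at week 3. Probes of the class I loading genes TAP2 and TAPBP lay between -0.20 and 0.07. The brightest BF1 probe departed from the mean of the other ages by 1.02 (limma, unadjusted p = 0.00414, adjusted p = 1.0). MHC genes have near-identical copies whose RNA a clone may share, so which copy a probe measures is uncertain.

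**Figure D5:**
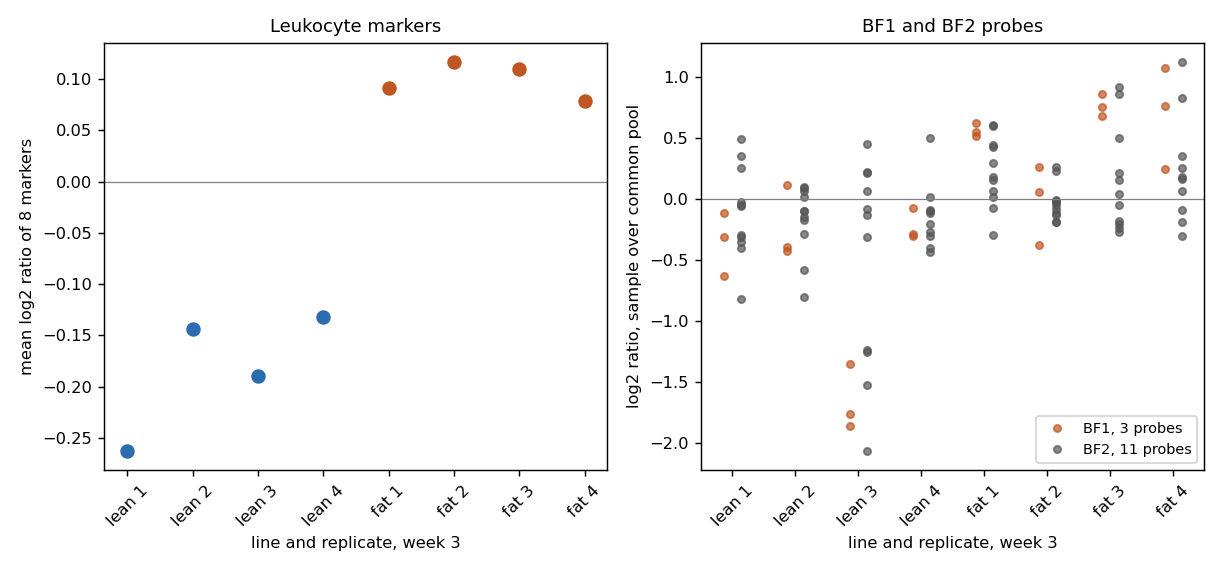
The left panel gives for each week 3 array the mean log2 ratio over those of 8 leukocyte markers that were usable on it. This mean is -0.26 to -0.13 in lean (blue) and 0.08 to 0.12 in fat birds (orange). The right panel gives the log2 ratio of each BF1 probe (orange) and BF2 probe (grey) by array, where 7 of the 14 lie between -2.06 and -1.24 in lean replicate 3.

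Of 3 red blood cell markers all were higher, by 0.14 to 0.25, but their array means overlapped, at -0.40 to -0.17 in lean and -0.30 to 0.18 in fat birds. Of 6 fibroblast and matrix markers 5 were higher, led by POSTN, with means of -0.13 to 0.12 and 0.04 to 0.29. Endothelial markers were 2 higher and 2 lower. Of posterior lobe and glial markers GFAP, MBP and SOX10 were higher, by 0.09 to 0.47, with overlapping means of -0.74 to -0.52 and -0.75 to -0.22, and AVP and OXT, the hormones of that lobe, were not measured here. ERG, an endothelial factor, was higher without overlap by 0.22 (SE 0.12), COL2A1, the collagen of cartilage, by 0.17 (SE 0.16), SNCB, a synuclein of neurons, by 0.20 (SE 0.14) and GFRA2, a receptor for neurturin, by 0.30 (SE 0.18). ERG, COL2A1, SNCB and GFRA2 were picked from their lists for not overlapping, as held for 2.82% of all genes on all 8 arrays. None of them had an unadjusted p under 0.05. The part of other cells in the differences above was not tested.

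Further lists were read the same way, against a median of 0.00314 and 51% of genes higher over all genes. Interferon and antigen presentation had 16 of 22 genes higher and a median of 0.04, led by BF1 and CD74, with TAP1, a peptide transporter of class I loading, at 0.14 (SE 0.12) and the interferon-induced genes OASL and LY6E at -0.08 and -0.33. Folding in the endoplasmic reticulum had 24 of 41 genes lower and a median of -0.02. Its extremes were the chaperone HSP90B1 at -0.28 (SE 0.20) and SRP54, a subunit of the signal recognition particle, at 0.19 (SE 0.19).

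Immediate early and stress genes had 8 of 15 lower and a median of -0.01, with the early factor JUN at -0.19 (SE 0.14) and HMOX1, a haem oxygenase, at 0.14. Their whole range was -0.23 to 0.14. Genes of thyroid hormone and cyclic AMP signalling had 16 of 24 lower and a median of -0.06. At an unadjusted p under 0.05, 1 was higher, ADCY2 at 2.26 (SE 0.68, described below), and 1 was lower. Of all genes 1.12% were higher and 1.56% lower at that p. GNG10, a G protein gamma subunit, was at -0.46 (SE 0.17, limma, unadjusted p = 0.0110), and GNAS, the G protein that activates adenylyl cyclase, at 0.15 (SE 0.17). Clock genes had 5 of 9 higher, with PER2 at -0.24 and CLOCK at 0.19, and folliculostellate and stem cell genes 7 of 12. Matrix genes had 24 of 40 higher, and 3 of them, MMP15, POSTN and the collagen VI chain COL6A3 at 0.37 (SE 0.17), had an unadjusted p under 0.05, against 1.12% of all genes.

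Neural and glial genes had 16 of 26 higher, and the 2 with an unadjusted p under 0.05, TSPAN7 and the secreted protein LGI1 at -0.35 (SE 0.15), were lower, against 1.56% of all genes.

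Some of the largest differences of all came from genes whose lines overlapped, named after their values were seen. ADCY2, an adenylyl cyclase, differed by 2.26 (SE 0.68), with lean values from -2.99 to -0.29 and fat values of 1.35, -0.33, 1.27 and 1.70, so that fat replicate 2 lay within the lean range. MMP15, a membrane-bound matrix protease, differed by 1.21 (SE 0.39) on 7 arrays. SLC35F5, CXorf57 and FAM169B differed by 2.24, 1.99 and 1.90, each through a single fat array at 8.39, 8.37 and 8.21, while their other arrays lay between -0.61 and 0.65.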

How the data were processed

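Per the file headers, the authors deposited 1 file per array from TIGR Spotfinder 2.2.4, with spot intensity and background of both dyes, not normalized. The quality score and the unsaturated share are fractions, as deposited. The authors' deposited table of log2 ratios, with normalization and log base not given in the sources used here, served as an alternative. Here intensities were divided by spot area, corrected with normexp (offset 50) and normalized by loess within each array (R 4.3.3, limma 3.58.1, statmod 1.5.0, with matplotlib 3.10.9 for plots). Both week 7 replicate 2 arrays, which share 1 scan, were left out, leaving 30 arrays in 1 limma model of 8 group means (22 residual degrees of freedom). Probes needed at least 3 usable arrays in each week 3 group. Tests were two-sided, adjusted over 14600 probes. The test was tried on simulated data. Genes named are the 12 largest differences per direction without overlap, all hormones, lineage factors and hypothalamic receptors, up to 3 per list without overlap, and SUFU, CD69L, CAD and CPQ; any other gene was picked with its values in view. The members and lists were chosen with earlier results of these data known. Symbols come from the platform's annotation, updated through a RefSeq gene table (GRCg7b). Alternatives covered background correction, normalization, probe filters, array weights, blocks and arrays left out. Replicate numbers were not taken as pairs in the main fit, and a fit with the number as a block is given below. With each line's mean removed, same-numbered week 3 arrays of the lines correlated at 0.084, 0.147, 0.321 and 0.016. Differently numbered ones correlated at -0.223 to 0.143, so the main fit leaves a possible pairing out. Nothing states separate birds, so p-values measure only the spread between these samples.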

Additional observations from a re-analysis of the deposited data

Results flagged for a closer look

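In 9 of 124 groups of 4 arrays tested, 1 array lay far from the other 3, where chance flags about 1 in 20, or 6.2. GUCY1A3 in fat replicate 1 was at -0.10 (others 0.26 to 0.33), PPP1RL in fat replicate 3 at 0.91 (0.03 to 0.11), and LSS in fat replicate 3 at -0.44 (-0.16 to -0.13). NDUFB9 in fat replicate 4 was at -0.14 (others 0.03 to 0.04) and GFRA2 in fat replicate 2 at -0.22 (-0.45 to -0.41). In lean birds PRKAB1 in replicate 1 was at 1.74 (0.18 to 0.43), BTK in replicate 1 at -0.19 (0.24 to 0.29), NHLRC3 in replicate 2 at 1.79 (0.45 to 0.52) and CRHR2 in replicate 2 at 1.74 (-0.40 to -0.11).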

How the results depend on the processing

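The count of probes past the adjusted threshold was 0 in 21 of 29 alternatives. It was 5 with scaling between arrays, 5 with no background correction, 11 with array weights, 5 with only probes usable on all 8 arrays, 1 with only the brighter probes (above the median) and 5 with an intensity trend and robust variance. With 1 week 3 array left out it was 0 to 4, with 1 without lean replicate 4 and 4 without fat replicate 4. The count at an unadjusted p under 0.05 was 465 of 14600 probes (3.18%) in the main fit, where chance alone would give 730. It was 836 (5.73%) with only the 8 week 3 arrays, 763 (5.23%) with scaling and 1014 (6.95%) with array weights. With only the brighter probes it was 200 of 7300 (2.74%). With array weights and only the 8 arrays, chosen after seeing the data, it was 1043 (7.14%). It was 370 to 504 without 1 array and 340 to 501 without 1 replicate number. With the replicate number as a block, none passed, 651 had an unadjusted p under 0.05 and the adjusted p of both SUFU and CD69L was 0.0553. With the header day as a block these counts were 0 and 500. The interaction with age gave 0 in all 27 settings that could fit it. Among 63 named genes 51 kept their sign throughout, and the other 12, none of them past the threshold, changed sign 30 times. With an array or number left out, TSHB ranged from -0.157 to 0.399, TBX19 from -0.00302 to 0.185, NEUROD1 from -0.280 to 0.0835, ISL1 from -0.0163 to 0.118, EGR1 from -0.365 to 0.0724, RB1 from -0.141 to 0.0175, TCF7L2 from -0.00515 to 0.186, CTNNB1 from -0.0117 to 0.179, SSTR2 from -0.0217 to 0.132, VIPR1 from -0.0615 to 0.187 and SCTR from -0.0723 to 0.176. TSHB was at -0.0558 with the day block. Without both fat arrays that stand apart, chosen after seeing the data, TSHB was at -0.0614, POMC at -0.00815, NEUROD1 at 0.00414, ISL1 at -0.00591 and SSTR2 at -0.0652. RB1 was at 0.0271 with loess per grid block and 0.0772 in the authors' deposited table, and SCTR at -0.00635 with scaling. That table moved 16 of the 46 named genes it holds by over 1.5 times, among them SLC35B3 to 3.32, DMA to 1.08, ERG to 1.00, COL2A1 to 0.69, SUFU to -1.85, PYCRL to -0.88 and GINS2 to -2.20. Leaving out 1 week 3 array moved 29 of the 63 by as much. The causes were not tested. An accession spotted at 2 places gave differences of the same sign for 140 of 277, which limits what 1 probe shows, as does the number of arrays.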
